A study of Schizosaccharomyces pombe with 6 samples.

Results

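The genes described here lie at the left end of chromosome II of the fission yeast Schizosaccharomyces pombe. They were taken by identifier: all rows of the count table that begin with SPBC1348, SPBPB8B6, SPBPB21E7, SPBPB10D8 or SPBPB7E8, with SPBC1348.02 left out. This rule gave 37 of the 7268 features in the table and used no measured value. Polyadenylated RNA was sequenced from 3 biological replicates each of cpn1∆ and wild-type cells, grown to log phase at 32 °C in rich medium. The cpn1∆ cells carry cpn1::HygMX6, in which the Caprin gene cpn1 is replaced by a hygromycin-resistance cassette. Apart from this, cells of both genotypes are h+ and carry the alleles ade6-210, leu1-32 and ura4-D18, with an ade6+ reporter in the pericentromere (otr1R:ade6+). Each genotype was represented by a single strain, so that any other difference between the strains cannot be told apart from the deletion, and p-values measure the spread between the replicate cultures of these strains.

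Subtelomeres of fission yeast are packaged in heterochromatin, in which the methyltransferase Clr4 marks histone H3 on lysine 9 and HP1-family proteins bind the mark. Silencing is seeded close to the telomere, by the shelterin protein Taz1 and by RNAi acting on repeats, and it spreads inwards over genes without a fixed boundary element. The genes within these regions are often duplicated between chromosome ends, and many encode transporters and enzymes for the uptake and use of nutrients. The comparison of cpn1∆ with wild-type cells asks which transcripts depend on Cpn1, a protein linked to heterochromatin establishment.

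Depth was similar between the genotypes, with 28581994 to 32575216 counts assigned to genes in the cpn1∆ libraries and 26461217 to 32916622 in the wild-type libraries. The labels were checked on cpn1, which gave 169 to 194 counts in the cpn1∆ libraries, against 7543 to 9034 counts in the wild-type libraries. The gene ura4, deleted in both strains, had 0 counts in all 6 libraries. The identifiers of all 37 genes were found in the ASM294v3 annotation, which places 35 of them at the left end of chromosome II. The remaining pair, SPBPB7E8.01 and SPBPB7E8.02, was placed in the interior of chromosome II. These meet the identifier rule but not its name, and they are described apart from the left-end genes.

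Most of the left-end genes that could be tested had less RNA in cpn1∆ cells, and none passed the test in the other direction. Of the 35 left-end genes, 28 passed the filter on low counts, 15 of these were lower in cpn1∆ cells at a false discovery rate (FDR) under 0.05, and 0 were higher. Over all 5812 features tested, 10.2% were lower and 8.36% higher by the same rule, which is the quasi-likelihood test of edgeR, adjusted over all features tested by Benjamini-Hochberg. The fall exceeded 2-fold in 6 genes (grt1, fah1, SPBPB8B6.02c, eno102, aes1 and SPBPB10D8.03), with a background of 0.31% of all features. The 15 lower genes are not all separate measurements. They include 4 transporter genes with identical coding sequences, and fah1, which lies wholly within grt1 on the opposite strand. The median log2 fold change (log2FC, cpn1∆ over wild type) of the 28 tested genes was -0.20, and that of all features was 0.01. In 19 of the 28, all 3 cpn1∆ libraries were below all 3 wild-type libraries, as they were in 18.1% of all features tested, and in the other 9 the libraries of the genotypes overlapped. In RNA from whole cultures, less RNA in every cell and RNA lost from some of the cells cannot be told apart.

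Along the chromosome, the called genes were not among the outermost of the 35 left-end genes taken by the rule. SPBC1348.02, which the rule left out, is not covered here. The outermost 10 genes of the rule, SPBC1348.15 to SPBC1348.10c, included 7 that were tested, of which 0 were lower and 0 higher (0 also at an unadjusted p under 0.05, smallest FDR 0.187). Their median log2FC was -0.02, with a range from -0.62 to 0.07. Of the 25 genes further in, SPBC1348.11 to SPBPB10D8.07c, 21 were tested and 15 were lower, with a median log2FC of -0.33 and a range from -1.58 to 0.09. Over all features tested, 10.2% were lower and 8.36% higher, so that 0 calls among the 7 outermost tested genes are near that share. Among these 7, SPBC1348.04, SPBC1348.05, SPBC1348.07 and SPBC1348.09 had standard errors of 0.23 to 0.33, too large for small changes to be detected. The outer block is the unbroken run of genes with fractional counts from the telomere side. Position and reads shared with other ends therefore cannot be told apart in this division. SPBC1348.11, SPBC1348.12 and ght7, the first genes of the inner block, also gave no call. The division into an outer and an inner block was made after the values had been seen, and the difference between the blocks was not tested.

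**Figure D1:**
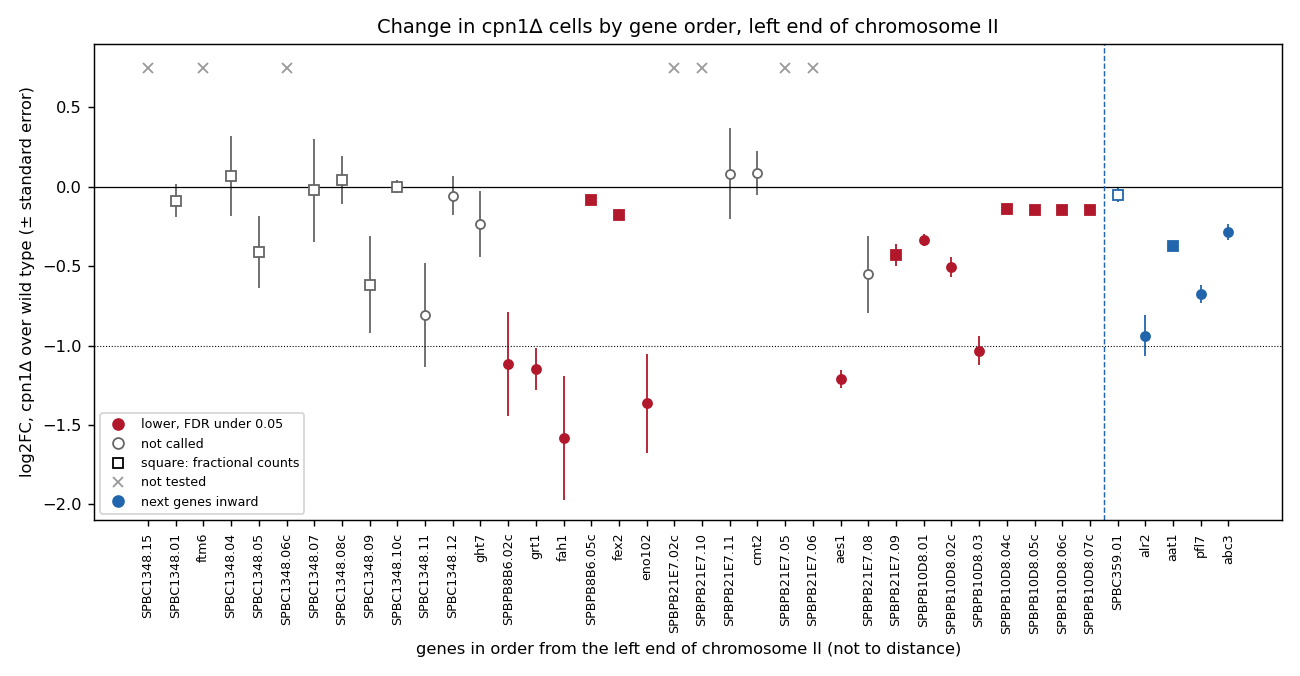
Change of each left-end gene in gene order from the telomere side. The vertical axis is log2FC, cpn1∆ over wild type, from the edgeR fit on 3 libraries each, bars are ± 1 standard error, and the dotted line marks a 2-fold fall. The 15 filled red symbols all lie on the centromere side of the outermost 10 genes shown. Squares are genes with fractional counts, and crosses are the 7 genes not tested. Blue symbols are the next 5 protein-coding genes inwards.

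Summed over the 35 left-end genes, expression was 1396, 1411 and 1386 CPM (read counts scaled to a common library size by TMM) in the cpn1∆ libraries, against 1654, 1617 and 1594 CPM in the wild-type libraries. The genotypes did not overlap in this sum. The outer block contributed 62.0 ± 1.26 CPM in cpn1∆ cells and 63.1 ± 1.89 CPM in wild-type cells (SD, n = 3 each), with overlapping libraries. Within it, SPBC1348.10c alone gave a mean of 47.9 CPM in both genotypes. Its coding sequence is identical to that of a gene on chromosome I, so that this sum is mostly not specific to the left end. The inner block contributed 1336 ± 13.4 CPM in cpn1∆ cells and 1558 ± 30.6 CPM in wild-type cells (SD, n = 3 each). Most of the counts came from few genes: the tandem transporter genes SPBPB10D8.04c to SPBPB10D8.07c held 60.4% of the sum in cpn1∆ cells and 57.6% in wild-type cells. Without these 4, the sum was 553 ± 4.29 CPM in cpn1∆ cells and 688 ± 9.71 CPM in wild-type cells (SD, n = 3 each).

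Transporter genes gave most of the counts of the region. SPBPB10D8.04c, SPBPB10D8.05c, SPBPB10D8.06c and SPBPB10D8.07c, annotated as transporters, lie side by side, and their coding sequences of 1140 bases are identical in the RefSeq sequence of ASM294v3. The first 60 coding bases are shown because all 4 genes share them, as they do every other coding base. A short read that lies within the coding sequence of one therefore cannot be assigned to it by sequence:
SPBPB10D8.04c: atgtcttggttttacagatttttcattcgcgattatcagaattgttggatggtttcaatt
SPBPB10D8.05c: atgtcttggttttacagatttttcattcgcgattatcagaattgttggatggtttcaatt
SPBPB10D8.06c: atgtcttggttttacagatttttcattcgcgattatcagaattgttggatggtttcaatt
SPBPB10D8.07c: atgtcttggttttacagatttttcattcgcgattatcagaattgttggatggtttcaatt

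The table gave these genes fractional counts, which differed by at most 3.74% between the 4 genes in any library. SPBPB10D8.07c, the innermost, was at 211, 217 and 211 CPM in the cpn1∆ libraries and at 243, 234 and 231 CPM in the wild-type libraries. Every cpn1∆ library was below every wild-type library. The fall was small, with a log2FC of -0.15 (standard error 0.03, FDR 0.00267), and the other 3 genes gave -0.14 each (standard error 0.03, FDR 0.00265 to 0.00307). These values describe the group of identical copies and are not 4 separate measurements. Counted as 1 gene, an alternative chosen after seeing the data, they left 12 genes lower.

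SPBPB10D8.01, annotated as a cysteine transporter, lies on the telomere side of the tandem group, with SPBPB10D8.02c and SPBPB10D8.03 between them. It has a sequence of its own, with whole counts. It reached 107, 102 and 104 CPM in the cpn1∆ libraries, against 135, 136 and 123 CPM in the wild-type libraries. The libraries did not overlap, and the log2FC was -0.33 (standard error 0.04, FDR 4.63e-05). The urea transporter gene SPBPB8B6.02c gave few counts, with 0.52, 0.35 and 0.61 CPM in the cpn1∆ libraries and 1.55, 0.86 and 0.91 CPM in the wild-type libraries. It fell by over 2-fold (log2FC -1.12, standard error 0.33, FDR 0.029), on 11 to 20 counts per cpn1∆ library and 27 to 41 counts per wild-type library. This call depended on single libraries: the FDR was 0.118 without wild-type replicate 1, where the log2FC was -0.83, 0.0723 without cpn1∆ replicate 1 and 0.119 without cpn1∆ replicate 2.

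The fluoride export channel gene fex2 (SPBPB8B6.06c), whose product protects cells from fluoride, was at 57.0, 58.4 and 58.5 CPM in the cpn1∆ libraries, against 65.0, 65.8 and 65.5 CPM in the wild-type libraries. The spread within each genotype was small relative to the difference between them (log2FC -0.17, standard error 0.04, FDR 0.00379). Its copy on chromosome I, fex1 (SPAC977.11), differs from it at 1 of 936 coding bases and gave no call (log2FC -0.11, standard error 0.04, FDR 0.0817). Both carry fractional counts, so that the copy a given fall came from is uncertain. Both remaining transporter genes gave no call. The hexose transporter gene ght7 had 1.46, 1.95 and 1.90 CPM in the cpn1∆ libraries and 1.62, 2.30 and 2.29 CPM in the wild-type libraries, with overlap (log2FC -0.23, standard error 0.21, FDR 0.474). SPBC1348.05, a transporter gene of the outer block, had a log2FC of -0.41 (standard error 0.23, FDR 0.236) although its libraries did not overlap.

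Enzymes of nitrogen, sulphur and carbon metabolism formed the next class. Both L-asparaginase genes, which encode enzymes that release ammonia from asparagine, were lower in cpn1∆ cells. SPBPB8B6.05c gave 213, 208 and 215 CPM in the cpn1∆ libraries and 225, 223 and 226 CPM in the wild-type libraries. Its log2FC of -0.08 (standard error 0.03, FDR 0.0377) was the smallest change among the called genes. The FDR was 0.0987, 0.0744 and 0.0736 without wild-type replicates 1, 2 and 3, and 0.0778 and 0.133 without cpn1∆ replicates 1 and 2. It was 0.0569 with DESeq2. SPBPB21E7.09 gave 24.2, 21.4 and 22.1 CPM in the cpn1∆ libraries, against 32.7, 28.1 and 30.5 CPM in the wild-type libraries, a log2FC of -0.43 (standard error 0.07, FDR 0.000781). The coding sequences of these 2 genes are 70.6% identical over 1071 aligned bases, and no 100-base stretch of one was found in the other.

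Each asparaginase gene has a closer copy on chromosome I. SPBPB8B6.05c differs from SPAC977.12 at 13 of 1071 coding bases, and SPBPB21E7.09 differs from SPAC186.03 at 15 of 1083. Coding bases 922 to 981 of the SPBPB8B6.05c pair are shown because they hold 7 of the differences, in capitals, the bases by which a read of this stretch can be assigned to one chromosome:
SPBPB8B6.05c: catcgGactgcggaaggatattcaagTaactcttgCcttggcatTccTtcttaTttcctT
SPAC977.12: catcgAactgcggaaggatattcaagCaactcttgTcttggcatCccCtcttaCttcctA

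All 4 of these genes have fractional counts. The copy SPAC977.12 had 248 CPM in cpn1∆ cells and 263 CPM in wild-type cells on average, a log2FC of -0.09 (standard error 0.03, FDR 0.0293), close to that of SPBPB8B6.05c. SPAC186.03 was at 3.55 CPM in cpn1∆ cells and 4.35 CPM in wild-type cells, with no call (log2FC -0.30, standard error 0.15, FDR 0.207). SPBPB21E7.09 thus had more counts than this copy in both genotypes.

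SPBPB10D8.02c, which encodes an arylsulfatase, an enzyme that frees sulphate from aromatic esters, was at 21.9, 20.7 and 19.0 CPM in the cpn1∆ libraries and at 28.3, 29.6 and 29.1 CPM in the wild-type libraries. The libraries of the genotypes were well apart (log2FC -0.50, standard error 0.06, FDR 9.35e-05). Of its length, 80.7% is covered by features on the opposite strand, mostly by the non-coding RNA SPNCRNA.1307, which was listed at 0 counts. The enolase gene eno102, a paralogue of the glycolytic enzyme gene, had 0.70, 0.45 and 0.55 CPM in the cpn1∆ libraries, against 2.08, 1.18 and 1.19 CPM in the wild-type libraries. Its log2FC was -1.36 (standard error 0.31, FDR 0.00774), with 79.2% of its length opposite SPNCRNA.1302, which was also at 0 counts. Whether a count of 0 in a feature covered from the opposite strand means absent RNA or comes from the counting was not tested. The methyltransferase gene cmt2, whose product acts on catechols, was unlike these, at 7.06, 7.76 and 5.30 CPM in the cpn1∆ libraries and 6.34, 5.997 and 6.52 CPM in the wild-type libraries. The cpn1∆ libraries lay on both sides of the wild-type libraries (log2FC 0.09, standard error 0.14, FDR 0.715).

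The gene aes1, annotated as a member of the phenazine biosynthesis family, had the smallest FDR among the left-end genes. It was at 39.3, 45.8 and 37.3 CPM in the cpn1∆ libraries and at 95.9, 96.5 and 91.1 CPM in the wild-type libraries. Even the highest cpn1∆ library was far below the lowest wild-type library, and the log2FC was -1.21 (standard error 0.06, FDR 1.14e-08). No feature on the opposite strand overlaps aes1, its counts are whole, and none of its 100-base stretches recurs elsewhere in ASM294v3. Per kilobase of exon, aes1 was at 34.6 CPM in cpn1∆ cells and 80.1 CPM in wild-type cells, so that in wild type it was above SPBPB10D8.01 (44.5 in cpn1∆ and 56.1 in wild-type cells on the same scale) and in cpn1∆ below it.

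Regulators were represented by a pair of genes that differed from each other. The transcription factor gene grt1 had 2.64, 3.16 and 3.40 CPM in the cpn1∆ libraries, against 6.57, 6.67 and 7.24 CPM in the wild-type libraries. The libraries did not overlap (log2FC -1.15, standard error 0.13, FDR 4.56e-05). SPBC1348.12, also annotated as a DNA-binding transcription factor, had 6.64, 7.82 and 6.40 CPM in the cpn1∆ libraries and 8.15, 6.76 and 6.90 CPM in the wild-type libraries, with overlap and no call (log2FC -0.06, standard error 0.12, FDR 0.8).

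The acetamidase gene fah1 lies wholly within grt1 on the opposite strand. It had 3, 8 and 6 counts in the cpn1∆ libraries and 12, 17 and 21 counts in the wild-type libraries, the fewest of any called gene here. Its fitted log2FC of -1.58 (standard error 0.39, FDR 0.0121) was the largest fall in the region, and without cpn1∆ replicate 1 the FDR was 0.0564 and the log2FC -1.33. Whether the counting used the strand is not given in the sources used here, and reads of fah1 and of grt1 then cannot be told apart over the shared stretch. The non-coding RNA SPNCRNA.1301, which also overlaps grt1, had 37 to 58 counts in the cpn1∆ libraries, against 65 to 79 counts in the wild-type libraries (log2FC -0.62, standard error 0.21, FDR 0.0489). Of its length, 51.4% lies opposite other features, so that its reads and those of grt1 may be mixed. This call is close to the threshold and was not followed through the alternative settings.

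**Figure D2:**
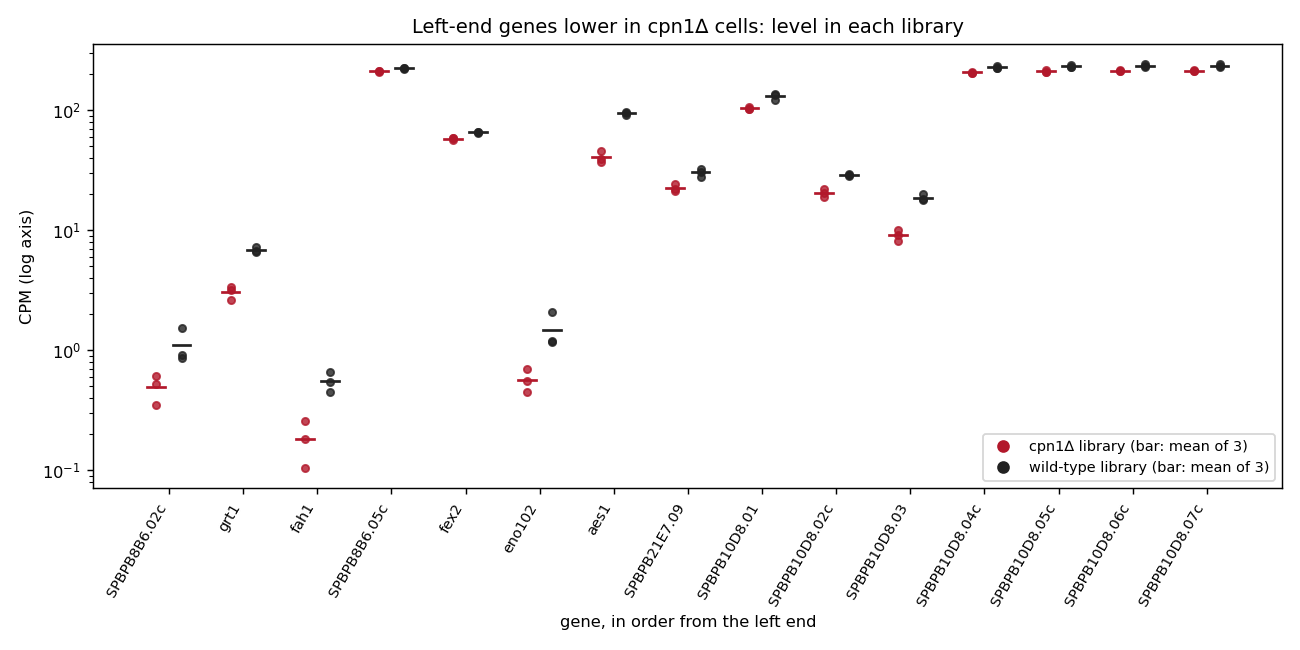
Level of the 15 left-end genes that were lower in cpn1∆ cells, in each library. Points are single libraries in CPM on a log axis, cpn1∆ in red to the left of wild type in black, and bars are means of 3. The cpn1∆ points are below the wild-type points for every gene, at levels from below 1 CPM for fah1 to over 200 CPM for the tandem transporters.

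Annotated pseudogenes were also measured. SPBPB10D8.03, between the arylsulfatase gene and the tandem transporters, had 9.18, 10.2 and 8.15 CPM in the cpn1∆ libraries and 18.4, 19.97 and 17.8 CPM in the wild-type libraries. It fell by about 2-fold without overlap (log2FC -1.03, standard error 0.09, FDR 3.99e-06). SPBC1348.11 was at 0.35, 0.64 and 0.31 CPM in the cpn1∆ libraries, against 0.75, 0.67 and 0.85 CPM in the wild-type libraries. These libraries did not overlap either, but with 10 to 27 counts per library the difference did not pass the test (log2FC -0.81, standard error 0.33, FDR 0.106). It passed without cpn1∆ replicate 2 (FDR 0.0455, log2FC -1.21). SPBPB21E7.08, 94.1% of which lies opposite SPNCRNA.1305, had a log2FC of -0.55 (standard error 0.24, FDR 0.138).

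The genes of the outer block gave few counts, with a mean of 0.16 to 47.9 CPM in wild-type cells. All 10 had fractional counts, and at least 82.1% of the 100-base stretches of each recur elsewhere in ASM294v3, mainly in genes of the other ends of chromosomes I and II. The phospholipase gene SPBC1348.10c gave the most counts, at 46.7, 48.4 and 48.6 CPM in the cpn1∆ libraries and 48.0, 48.4 and 47.3 CPM in the wild-type libraries. The genotypes overlapped, with a log2FC of 0.00 and a standard error of only 0.04 (FDR 0.987). Its coding sequence of 2022 bases is identical to that of plb4 (SPAC977.09c) on chromosome I, which had the same mean level, 48.2 CPM, in cpn1∆ and in wild-type cells. What each copy contributed is therefore not measured.

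SPBC1348.01, an uncharacterised gene of the outer block, had 6.78, 6.86 and 7.14 CPM in the cpn1∆ libraries, against 7.06, 7.97 and 7.02 CPM in the wild-type libraries (log2FC -0.09, standard error 0.11, FDR 0.621). The glycoprotein gene SPBC1348.08c, which differs from pfl6 (SPAC977.07c) at 1 of 1251 coding bases, had a log2FC of 0.04 (standard error 0.15, FDR 0.873). Overlap between the genotypes was seen for both. The methyltransferase gene SPBC1348.04 (log2FC 0.07, standard error 0.25) and the uncharacterised SPBC1348.07 (log2FC -0.02, standard error 0.33) were too low for small changes to be detectable at this depth. SPBC1348.09, a dehydrogenase gene, had 0.66, 0.32 and 0.55 CPM in the cpn1∆ libraries and 0.72, 0.83 and 0.78 CPM in the wild-type libraries. Its libraries did not overlap, but the test was not passed (log2FC -0.62, standard error 0.31, FDR 0.187).

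In the inner block, 7 genes carried fractional counts, among them the 4 identical transporter genes. All 7 were tested and lower, by a log2FC from -0.43 to -0.08. The part of shared reads in the calls of either block was not tested. Of the 14 inner genes with whole counts that were tested, 8 were lower, with a median log2FC of -0.68. The 6 falls of over 2-fold were all in genes with whole counts. The uncharacterised gene SPBPB21E7.11 varied between replicates, with 4.70, 1.92 and 2.60 CPM in the cpn1∆ libraries and 2.53, 2.201 and 3.76 CPM in the wild-type libraries. It gave no call (log2FC 0.08, standard error 0.29, FDR 0.875), and cpn1∆ replicate 1 alone was above every other library.

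The remaining 7 left-end genes had 0 to 12 counts in a library and were not tested: SPBC1348.15, ftm6 (SPBC1348.03), SPBC1348.06c, SPBPB21E7.02c, SPBPB21E7.10, SPBPB21E7.05 and the pseudogene SPBPB21E7.06. SPBPB21E7.02c, of the phosphoglycerate mutase family, came nearest to the filter, with 7, 4 and 6 counts in the cpn1∆ libraries and 9, 9 and 12 counts in the wild-type libraries. SPBPB21E7.05 had 1 count in 1 library of each genotype. A difference in these genes was not detectable at this depth.

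**Figure D3:**
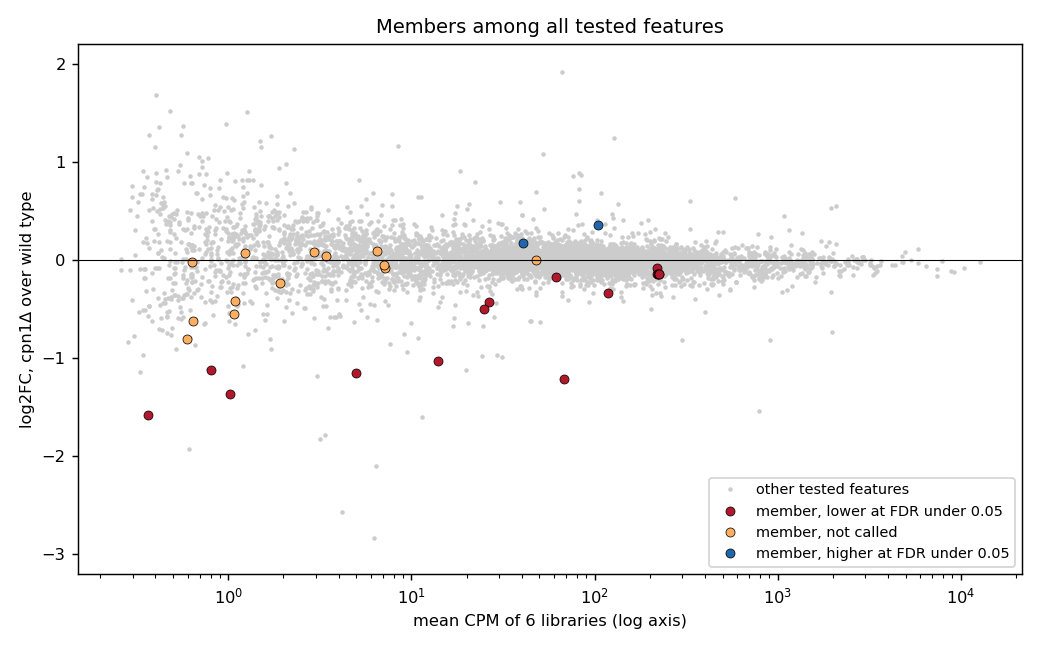
Change against level for the 30 tested genes of the identifier rule among all 5812 tested features. The horizontal axis is the mean CPM of 6 libraries (log axis), the vertical axis log2FC, cpn1∆ over wild type, and 2 features fall outside the axes. Red, orange and blue points are rule genes that were lower (15), not called (13) and higher (2), and the red points near 200 CPM lie within the grey cloud of other features, while the 6 below -1 lie at its lower edge or under it.

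The pair SPBPB7E8.01 and SPBPB7E8.02, placed in the interior of chromosome II, moved the other way. SPBPB7E8.01, an uncharacterised gene, had 113, 115 and 123 CPM in the cpn1∆ libraries, against 83.5, 87.8 and 102 CPM in the wild-type libraries. All cpn1∆ libraries were above all wild-type libraries, as in 17.3% of all features tested (log2FC 0.36, standard error 0.06, FDR 0.000817). SPBPB7E8.02, which encodes a PSP1 family protein, had 45.7, 41.1 and 42.0 CPM in the cpn1∆ libraries and 37.9, 39.8 and 36.4 CPM in the wild-type libraries (log2FC 0.17, standard error 0.05, FDR 0.0362). Its FDR was 0.0881 and 0.120 without wild-type replicates 1 and 3, and 0.147 and 0.0523 without cpn1∆ replicates 1 and 3. With this pair included, the rule gave 30 tested genes, 15 lower and 2 higher, and a median log2FC of -0.16. This median was -0.29 without cpn1∆ replicate 3.

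Most of the genes next to the region on the centromere side were lower as well. The first, the amino acid permease gene SPBC359.01, did not pass the test, at 56.0, 61.2 and 59.0 CPM in the cpn1∆ libraries and 63.3, 61.4 and 58.3 CPM in the wild-type libraries (log2FC -0.05, standard error 0.04, FDR 0.47). The next 4 did. The alanine racemase gene alr2, which interconverts L- and D-alanine, was at 7.72, 5.49 and 6.31 CPM in the cpn1∆ libraries, against 10.6, 13.7 and 12.7 CPM in the wild-type libraries (log2FC -0.94, standard error 0.13, FDR 0.000187). The amino acid permease gene aat1 had a log2FC of -0.37 (standard error 0.03, FDR 1.42e-06), the cell-surface glycoprotein gene pfl7 of -0.67 (standard error 0.06, FDR 2.28e-06) and the ABC transporter gene abc3 of -0.29 (standard error 0.05, FDR 0.0016). Of all 6 SPBC359 genes tested, 4 were lower and 0 higher, where 10.2% and 8.36% of all features were. Of 25 tested genes of the SPBC1683 and SPBC660 groups, which lie further in and are not all contiguous with the region, 5 were lower and 1 was higher, with a median log2FC of -0.03, against the same background.

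At the other 3 ends, calls are likewise read beside the 10.2% of all features that were lower and the 8.36% that were higher. At the right end of chromosome II, 8 genes were lower and 1 was higher of 20 tested, with a median log2FC of -0.33. For chromosome I, 8 genes were lower and 2 higher of 33 tested at the left end (median log2FC -0.12), and 8 were lower and 3 higher of 32 tested at the right end (median log2FC -0.02). The differences between ends were not tested, and the ends share repeated genes with fractional counts.

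**Figure D4:**
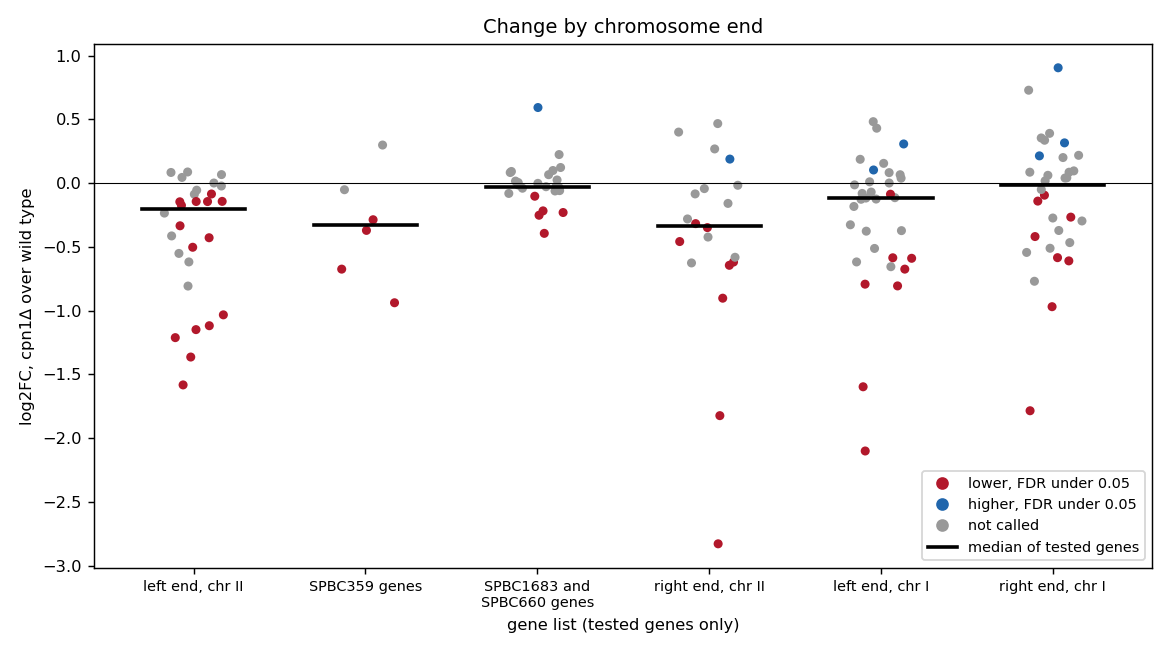
Change of tested genes by group: the left end of chromosome II, the SPBC359 genes next to it, the SPBC1683 and SPBC660 genes, and the other ends of chromosomes I and II. The vertical axis is log2FC, cpn1∆ over wild type, each point is a gene, black bars are medians, and sideways spread is for legibility only. The left end of chromosome II has 15 red points (lower) and no blue point (higher), with a median of -0.20.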

How the data were processed

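The authors extracted total RNA from log-phase cultures, had polyadenylated RNA sequenced, trimmed adapters with cutadapt 4.8, mapped the reads to ASM294v2 with STAR 2.7.10b, counted with featureCounts and used edgeR 3.42.4. They deposited one table of expected counts per feature, not normalised. How strand and multiply mapping reads were treated is not given in the sources used here, but 760 features (10.5%) carry fractions of a count. Although whole counts had been assumed, fractions were rounded before testing. The row that names no gene, 0.608% to 0.647% of the counts, was left out.

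Genotypes were compared over all 6 libraries with edgeR 4.0.16 in R 4.3.3: TMM scaling, filterByExpr (minimum count 10), the quasi-likelihood test (legacy set to FALSE), genotype as the only term, and Benjamini-Hochberg adjustment over all 5812 features. A call is an FDR under 0.05. The fit was tested on simulated data. Names, gene order, overlaps and sequences come from RefSeq ASM294v3, matched by identifier (6846 of 7268). As the builds differ in name, no coordinates are given. Repeats were sought as 100-base stretches found elsewhere in ASM294v3. Genes named were all called ones, the 5 most abundant, examples without a call, untested ones, the next 5 genes inwards and cpn1. The SPBC359 genes and the non-coding RNAs were added after seeing the data. The genes and lists were chosen with earlier results of these data known. Alternatives were other scalings, filters and tests (DESeq2 1.42.0, limma 3.58.1 voom, edgeR's legacy fit), unrounded counts, the replicate number as a block, and each library left out. Tables and figures used pandas 2.3.3 and matplotlib 3.10.9 in Python 3.11.15. Replicates of one genotype differed by more than sampling noise (chi-square per gene 4.68 to 11.0).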

Additional observations from a re-analysis of the deposited data

How the results depend on the processing

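Over 17 alternative settings, 13 of the 17 called genes were called in every setting that tested them. The exceptions were SPBPB8B6.02c, fah1, SPBPB8B6.05c and SPBPB7E8.02. Besides the losses without single libraries given above, SPBPB8B6.05c missed the threshold with total counts only (FDR 0.186), the upper quartile (0.061) and DESeq2 (0.0569). No called gene changed its direction in these settings, while some uncalled genes with a log2FC near 0 did. The median log2FC over all tested genes of the identifier rule, -0.16, was -0.14 with total counts only, -0.24 over 37 genes with at least 1 count, -0.14 with at least 1 CPM in 3 libraries and -0.15 with at least 10 counts in every library. Their summed CPM, 89.0% of wild type, was 90.5% with total counts only. That scaling gave 399 lower and 636 higher features in all, against 595 and 486. With 1 library left out, 750 to 1020 features were called (1081 with all), 12 to 15 of the genes were lower and 1 to 2 higher, 4 to 6 fell and 0 rose over 2-fold, the median was -0.29 to -0.15 and the summed CPM 88.3% to 89.6%. Left-end genes alone, chosen after seeing the data, gave 0 higher, a median of -0.20 and 86.2%. The tandem transporters as 1 gene gave a median of -0.23, and genes with whole counts 8 lower. Samples with the same replicate number had weak correlations of deviations (-0.05, 0.05 and 0.09), which cannot exclude that the samples were paired. As a block, the replicate number gave 1226 called features, with 15 of the genes lower and 2 higher. Depth limits the 7 untested genes and those near 1 CPM. Fractional counts and features on opposite strands limit which copy or strand a value belongs to.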

Other observations

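Of 22 listed genes of silencing factors that act at subtelomeres (CLRC, HP1-family proteins, SHREC, shelterin and regulators such as epe1 and set2), 20 were tested, 2 were lower, clr2 and cul4, and 0 were higher, with a median log2FC of -0.03. The share lower was 10% of those tested, near the 10.2% over all features. Both falls were small, with a log2FC of -0.20 for clr2 (standard error 0.04, FDR 0.00301) and -0.14 for cul4 (standard error 0.04, FDR 0.0363). The gene chp2, which encodes an HP1-family protein, gave no call in the quasi-likelihood test of edgeR (log2FC 0.16, standard error 0.07, FDR 0.129). Neither clr3, a histone deacetylase gene, nor sgo2 had a count in any library, and opposite-strand features cover both along 100% of their length. Whether these counts of 0 mean absent RNA was not tested.

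Of 9 non-coding RNAs annotated between the left-end genes, a list added after seeing the data, 6 were tested, 1 was lower and 0 were higher, with a median log2FC of -0.42. Over all features 10.2% were lower and 8.36% higher, so that a single call among 6 is no result about these RNAs. SPNCRNA.1303 had 7, 15 and 11 counts in the cpn1∆ libraries and 22, 21 and 17 counts in the wild-type libraries, which did not overlap, but did not pass the test (log2FC -0.90, standard error 0.34, FDR 0.0839). SPNCRNA.287, with fractional counts, had a log2FC of -0.32 (standard error 0.12, FDR 0.0807). The pair SPNCRNA.1302 and SPNCRNA.1307 was at 0 counts, with 100% and 99.4% of its length opposite other features, so that absence of these RNAs was not established.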
